A study of Mus musculus with 39 samples.

Results

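Ivd encodes isovaleryl-CoA dehydrogenase, and it was described here together with 9 other genes of the breakdown of leucine, isoleucine and valine: Bcat1, Bcat2, Bckdha, Bckdhb, Auh, Acad8, Acadsb, Mccc1 and Mccc2. These 10 genes are 10 of the 19938 genes that the arrays measured with a probe set annotated with 1 symbol. Each of the 10 had exactly 1 such probe set. Ivd was chosen by its measured mid-pregnancy level, which was higher than in islets of non-pregnant mice, so its values over pregnancy are given as a description, with no test. The other 9 genes belong to the same pathway, and how they were chosen is not stated in the sources used here.

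The series holds 39 Affymetrix arrays (Mouse Gene 1.0 ST) of RNA from isolated pancreatic islets, in 10 groups of biological replicates. Pdx1-creLate mice (4 arrays) and their wild-type littermates, called controls (4 arrays), both came from generation 8 of the Pdx1-creLate backcross and were not pregnant. Pdx1-creLate is a transgenic line with Cre recombinase under a promoter of the beta-cell gene Pdx1, and a minigene of human growth hormone is known to be part of that transgene. Wild-type C57bl6/J mice made up the other 8 groups: non-pregnant females (4 arrays), pregnancy day 3.5 (3 arrays), days 6.5, 9.5, 12.5, 15.5 and 18.5 (4 arrays each) and 10 days post partum (4 arrays). Ages were not given in the sources used here. The female transcript Xist read 10.2 to 10.5 in non-pregnant mice, 3.8 to 5.0 in controls and 4.0 to 4.6 in Pdx1-creLate mice, while the Y-linked Eif2s3y read 2.6 to 2.8, 7.1 to 7.7 and 7.6 to 8.0. By these genes the backcross mice were male, and they differ from the female C57bl6/J mice in sex as well as in strain. The islet hormones checked the tissue label, with group means of 12.50 to 12.70 for Ins2 (insulin) and 13.5 to 14 for Gcg (glucagon).

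All levels below are log2 values, so a difference of 1 doubles the signal, and they carry 1 decimal. Array medians lay between 5.8 and 6.0, and the SD of the values within an array lay between 1.98 and 2.11. A gene was called where limma's Benjamini-Hochberg adjusted p over all 19938 genes was under 0.05. Levels are compared only within a gene, since signals of different probe sets are on different scales. The standing of Bcat1 among all genes and beside the array medians is given below only as a rough guide to dimness. Islets are a mixture of cells, and in such bulk RNA fewer cells of a type and less RNA per cell cannot be told apart. Precision is limited by the few arrays per group.

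Branched-chain amino acids first lose their amino group to 2-oxoglutarate, which yields glutamate and a branched-chain keto acid. The branched-chain keto acid dehydrogenase complex then commits the carbon skeleton to oxidation, and each of the resulting acyl-CoA esters meets its own flavin-dependent dehydrogenase. In the leucine branch Ivd acts at that step, methylcrotonyl-CoA carboxylase and Auh follow, and the end products are acetyl-CoA and acetoacetate. In islets leucine is a well-known fuel and stimulus of insulin secretion.

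The sequences before the transcription start are shown for the 2 member genes that differed between Pdx1-creLate and control islets, Ivd and Bcat1, and for Aldh9a1 and Wipi1. The latter are 2 of the 5 genes whose group means ran most like those of Ivd, and they are shown because they hold the same motif. Hsbp1 and Tph2, which ranked above them in likeness, have no match to it. They are RefSeq promoters on GRCm38.p6, from 250 bases before the start to 50 bases after it, and the table held 13 promoters for all 10 genes. They were searched on both strands for 3 motifs. TTCNNNGAA is the core that STAT factors, the effectors of prolactin and growth hormone receptors, recognise, and it is its own reverse complement. TGATGNAA is a form of the amino acid response element, and CACGTG is the E-box core. Capitals mark a match to TTCNNNGAA.
Ivd, plus strand, chr2:118861744-118862043: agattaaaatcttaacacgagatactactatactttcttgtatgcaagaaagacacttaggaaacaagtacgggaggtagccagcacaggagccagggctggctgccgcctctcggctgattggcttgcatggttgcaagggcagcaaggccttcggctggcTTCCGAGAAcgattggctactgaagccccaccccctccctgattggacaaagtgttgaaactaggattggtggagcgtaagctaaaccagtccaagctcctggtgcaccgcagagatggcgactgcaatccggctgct
Bcat1, minus strand, chr6:145076108-145076407: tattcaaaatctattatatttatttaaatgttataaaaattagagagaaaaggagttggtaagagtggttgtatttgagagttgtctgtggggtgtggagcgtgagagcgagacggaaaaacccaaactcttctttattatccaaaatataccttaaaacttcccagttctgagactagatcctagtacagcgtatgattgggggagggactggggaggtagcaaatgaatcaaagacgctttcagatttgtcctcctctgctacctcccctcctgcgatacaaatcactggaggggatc
Aldh9a1, plus strand, chr1:167349741-167350040: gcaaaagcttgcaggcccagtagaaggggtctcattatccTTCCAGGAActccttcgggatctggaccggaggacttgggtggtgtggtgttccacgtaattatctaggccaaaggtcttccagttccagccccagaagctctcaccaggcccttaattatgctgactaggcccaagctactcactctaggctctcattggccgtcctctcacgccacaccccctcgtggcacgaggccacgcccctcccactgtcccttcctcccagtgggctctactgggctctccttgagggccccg
Wipi1, minus strand, chr11:109611340-109611639: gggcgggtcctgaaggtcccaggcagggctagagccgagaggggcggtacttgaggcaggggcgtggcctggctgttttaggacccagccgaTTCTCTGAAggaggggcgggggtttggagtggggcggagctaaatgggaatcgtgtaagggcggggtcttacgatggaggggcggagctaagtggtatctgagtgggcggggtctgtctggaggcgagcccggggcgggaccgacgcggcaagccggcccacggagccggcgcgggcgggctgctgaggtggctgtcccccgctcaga

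Ivd was the 1 gene of the 10 with a match to TTCNNNGAA, TTCCGAGAA, which begins 88 bases before the start. The motif is common, since 8.3% of 32851 promoters of this length and 9.55% of 27025 genes hold it. The printed Bcat1 promoter and its second one, at another start, hold none of the 3 motifs. Mccc2 held the E-box core 9 bases before its start, a motif found in 7.15% of all promoters. No member promoter held TGATGNAA, which 3.97% of promoters contain. These matches describe the letters in the windows, and binding was not measured.

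Across the 10 genes, Ivd and Bcat1 stood apart by size. In Pdx1-creLate islets Ivd was 3.86-fold and Bcat1 2.50-fold above control littermates, and these were the 2 of 10 members called in a comparison that called 6.59% of all genes (2.86% higher and 3.72% lower). In pregnancy Ivd reached a group mean of 11.88 at day 18.5, the mean of Pdx1-creLate islets, while Bcat1 at mid-pregnancy differed from its non-pregnant level by 0.03. Bckdhb rose moderately in pregnancy and was highest 10 days post partum, and the remaining 7 genes had group means that ranged over 0.33 to 0.83 log2 units. The median difference of the 10 genes was 0.08 in Pdx1-creLate islets beside -0.03 for all genes, and 0.10 at mid-pregnancy beside -0.01.

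**Figure D1:**
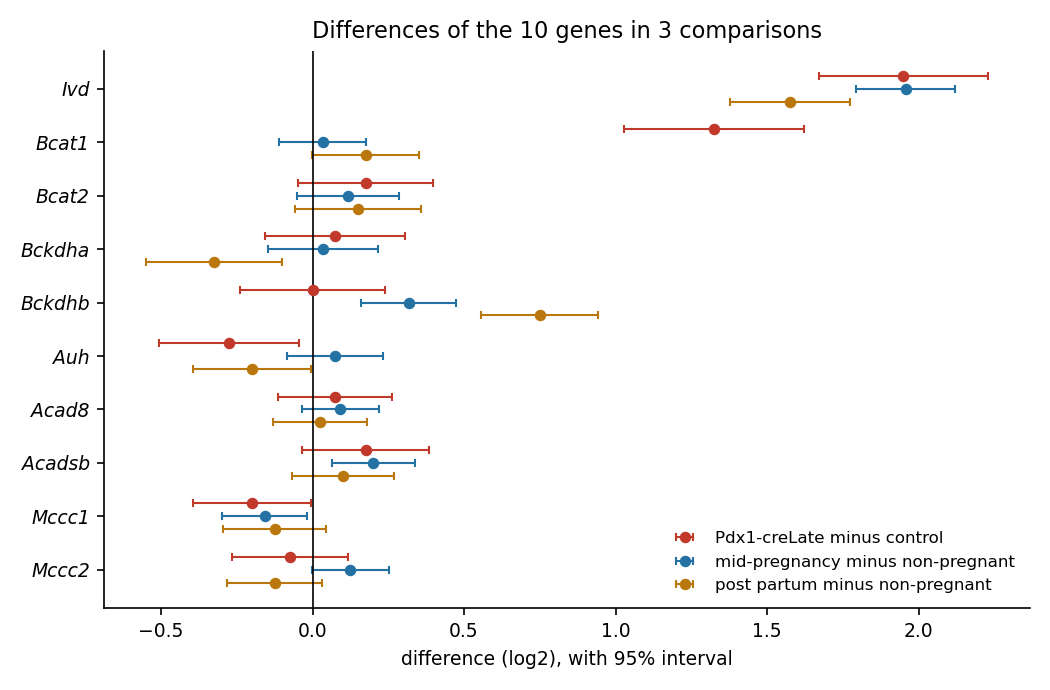
Differences on the log2 scale (horizontal axis) of the 10 genes (rows) for Pdx1-creLate minus control, mid-pregnancy minus non-pregnant and 10 days post partum minus non-pregnant, with points for the estimate and bars for the 95% interval of limma. Ivd lies near 1.95 in the first comparison and 1.96 in the second, Bcat1 lies away from 0 in the first, and Bckdhb lies at 0.75 in the third.

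Transamination is carried out by the cytosolic enzyme Bcat1 and the mitochondrial enzyme Bcat2. Bcat1 (probe set 10549222, GRCm38 chr6:144993835-145076157) read 6.8, 7.0, 6.3 and 6.6 on the 4 Pdx1-creLate arrays and 5.3, 5.2, 5.3 and 5.6 on the control arrays. All Pdx1-creLate arrays lay above every other array of the series, where no value exceeded 5.7. The difference was 1.33 ± 0.14 (SE; 95% interval 1.03 to 1.62), and limma gave an adjusted p of 2.02e-05. Groups of arrays that did not overlap and were higher in Pdx1-creLate occurred for 3.73% of all genes in this comparison. Leaving out single arrays gave 1.22 to 1.45, and the call held under all 18 alternatives.

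**Figure D2:**
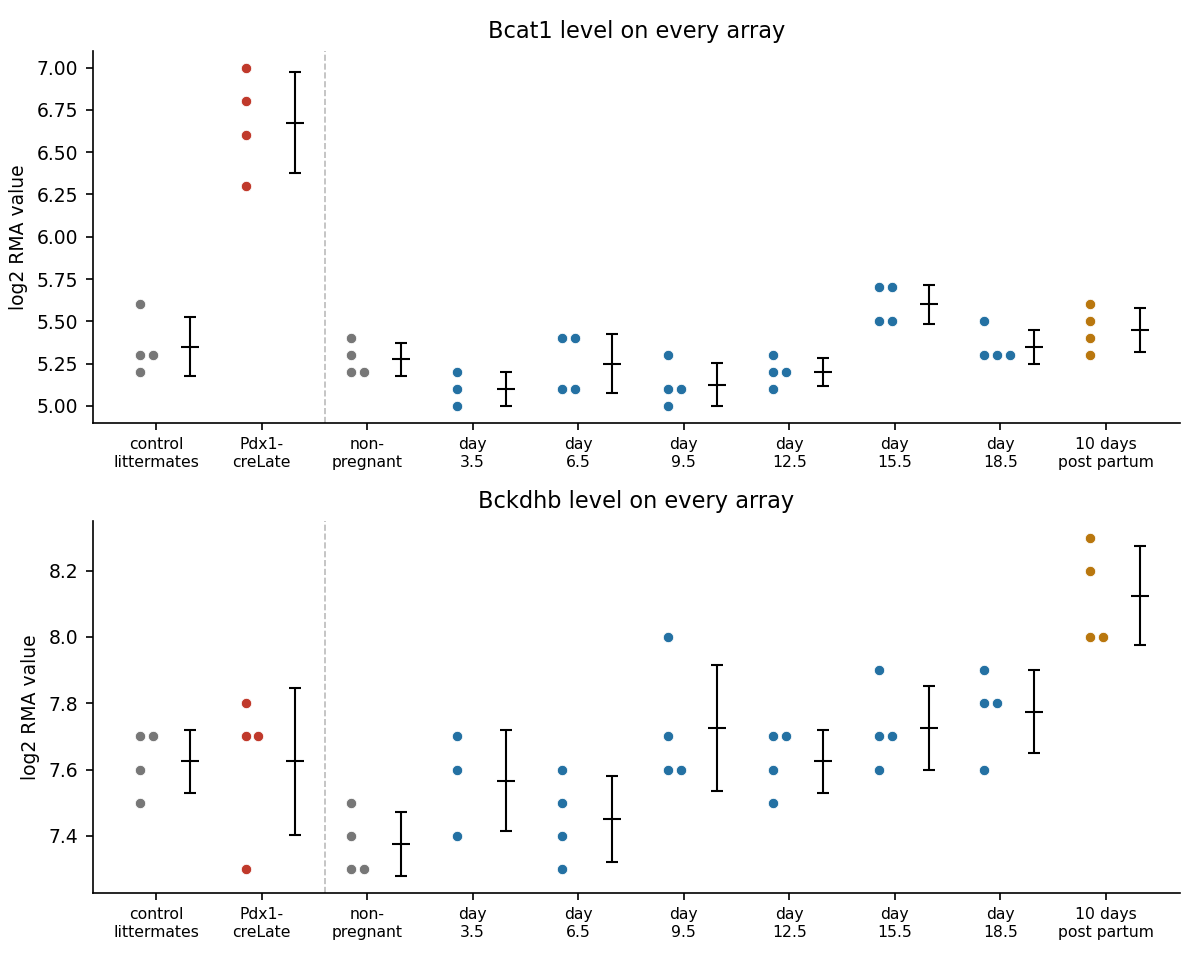
Levels of Bcat1 (top) and Bckdhb (bottom) in log2 units on every array (points) of the 10 groups, with the group mean and SD beside them. Bcat1 lies between 6.3 and 7.0 in Pdx1-creLate islets and at 5.7 or below elsewhere, and Bckdhb lies between 8.0 and 8.3 post partum.

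The Bcat1 differences in pregnancy were small, at a low level of signal. Its mean over the 39 arrays, 5.45, stood at percentile 34.5 of all genes. Outside Pdx1-creLate its group means of 5.10 to 5.60 lay below every array median (5.8 to 6.0). The part of this low level in the small differences was not tested. The mid-pregnancy difference of Bcat1, the mean of days 9.5, 12.5 and 15.5 against non-pregnant islets, was 0.03 (95% interval -0.11 to 0.18, limma adjusted p = 0.862). The lowest group mean was 5.10 ± 0.10 (SD, n = 3) at day 3.5, and day 15.5 was the highest of the pregnancy groups, with arrays at 5.5, 5.7, 5.7 and 5.5. That day was higher than non-pregnant islets by 0.33 (limma adjusted p = 0.0148). The call was lost when day 15.5 replicate 2 (difference 0.29, adjusted p = 0.0558) or 3 (0.29, 0.0615) was left out, and likewise non-pregnant replicate 1 (0.30, 0.0556) or 3 (0.30, 0.0515). It was also lost in the model of all 39 arrays (0.33, adjusted p = 0.0516). The effect of Pdx1-creLate exceeded the effect of mid-pregnancy on Bcat1 by 1.29 ± 0.14 (adjusted p = 7.11e-09 in a limma model of all 39 arrays). In such a difference of effects, for any gene, setting, sex and strain background change together and cannot be told apart. Bcat1 was the 1 of 9 members tested that this difference of effects called, beside 5.48% of all genes.

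Bcat2 (probe set 10553015, chr7:45568967-45589710) had group means from 7.40 in controls to 7.73 at day 18.5. Its differences were 0.18 in Pdx1-creLate (95% interval -0.05 to 0.40) and 0.12 at mid-pregnancy (-0.05 to 0.29), and neither was called. In both comparisons the 95% interval of Bcat2 ended at or below 0.40.

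Several values of other cell types moved with the Pdx1-creLate groups. The mean of 4 duct markers was 6.70 to 7.10 on Pdx1-creLate arrays and 6.10 to 6.25 on control arrays. Of these 4, Cftr was 6.8 to 8.1 against 3.8 to 4.2, while Krt19 (5.1 to 5.4 against 5.3 to 5.7), Krt7 (9.2 to 9.3 against 9.3 to 9.6) and Sox9 (5.5 to 5.9 against 5.7 to 6.0) were not higher. The mean of 13 acinar markers was 8.86 to 10.4 against 8.64 to 9.77, and with that mean as a covariate the difference was 1.20 for Bcat1 and 1.92 for Ivd. The mean of 9 beta-cell markers was 11.0 to 11.2 in Pdx1-creLate and 11.4 in every control array. Of these 9, Ucn3 (10.0 to 10.2 against 10.9 to 11.1), Slc2a2 (11.5 to 11.7 against 12.0 to 12.3), Slc30a8 (11.8 to 11.9 against 12.2 to 12.4) and Mafa (8.0 to 8.3 against 8.4 to 8.6) were lower. Nkx6-1, Ins2 and Iapp overlapped, and G6pc2 (12.8 to 12.9 against 12.6 to 12.8) and Pdx1 (9.7 to 9.9 against 9.6 to 9.9) were not lower. The means of 3 PP-cell markers (10.4 to 11.1 against 11.5 to 11.6) and 4 alpha-cell markers (9.65 to 9.98 against 10.0 to 10.4) were also lower without overlap. The part of the duct, beta-cell, PP-cell and alpha-cell values in the results was not tested.

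Bckdha and Bckdhb encode the alpha and beta subunits of the decarboxylase of the keto acid dehydrogenase complex. Bckdhb (probe set 10587534, chr9:83925111-84124240) read 7.4, 7.3, 7.3 and 7.5 in non-pregnant islets and 8.0, 8.2, 8.3 and 8.0 at 10 days post partum. The groups did not overlap, and the post partum group also lay above day 18.5, the next in order, whose mean was 7.78 ± 0.13 (SD, n = 4). Post partum islets exceeded non-pregnant islets by 0.75 ± 0.10 (SE; 1.68-fold; 95% interval 0.56 to 0.94; limma adjusted p = 1.91e-06). This call held under all 19 alternatives, with differences of 0.69 to 0.84. In this comparison 2 of 9 members tested were called, beside 12.2% of all genes (4.46% higher and 7.78% lower).

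At mid-pregnancy Bckdhb was the 1 of 9 members tested that was called, beside 9.24% of all genes (6.72% higher and 2.52% lower). It rose by 0.32 ± 0.08 (limma adjusted p = 0.00580). With array SD as a covariate the difference was 0.22 and the call ended (adjusted p = 0.0880). By single days, Bckdhb was called at day 9.5 (0.35, adjusted p = 0.0104), day 15.5 (0.35, 0.0169) and day 18.5 (0.40, 0.00447). The call of day 9.5 was lost without day 9.5 replicate 4 (0.26, adjusted p = 0.0770). That of day 15.5 was lost when its replicate 3 was left out (0.29, 0.0868), and likewise non-pregnant replicate 2 (0.33, 0.0599) or 3 (0.33, 0.0556). With array SD as a covariate the calls of day 9.5 (0.17) and day 18.5 (0.23) ended, and quantile normalization ended that of day 9.5 (0.24). In Pdx1-creLate islets its difference from controls was 0.00, with a 95% interval of -0.24 to 0.24.

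Bckdha (probe set 10561063, chr7:25629852-25658782) was highest at day 18.5, with arrays at 8.0, 7.9, 8.0 and 8.3, and lowest post partum, at 7.6, 7.5, 7.7 and 7.5. The groups did not overlap, and from day 18.5 to post partum Bckdha fell by 0.48 ± 0.11 (limma adjusted p = 0.00307) while Bckdhb rose by 0.35 ± 0.10 (0.00837). The 2 subunits thus moved in opposite directions across birth. With array SD as a covariate neither was called, at -0.16 for Bckdha (adjusted p = 0.653) and 0.56 for Bckdhb (0.0572). Array SDs were 2.05 to 2.10 at day 18.5 and 2.00 to 2.04 post partum, and beyond this covariate their part in the result was not tested.

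Against non-pregnant islets the post partum level of Bckdha was lower by 0.33 (difference -0.33, limma adjusted p = 0.0468). That call was lost without post partum replicate 1 (-0.33, adjusted p = 0.0754), 2 (-0.30, 0.115) or 4 (-0.30, 0.121). It was also lost without non-pregnant replicate 1 (-0.36, 0.0577), 2 (-0.26, 0.173) or 3 (-0.29, 0.128). Quantile normalization (-0.26, 0.0810), centring (-0.33, 0.0686), array SD as a covariate (-0.26, 0.0784) and a fit of the compared groups alone (-0.33, 0.0681) ended it too.

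Ivd, Acad8 and Acadsb are the acyl-CoA dehydrogenases of the leucine, valine and isoleucine branches. Ivd (probe set 10474836, chr2:118861959-118882909) read 12.0, 11.9, 11.7 and 11.9 on the Pdx1-creLate arrays and 9.7, 9.7, 10.0 and 10.3 on control replicates 1 to 4. The lowest Pdx1-creLate array was above the highest control array. The difference was 1.95 ± 0.13 (SE; 95% interval 1.67 to 2.23), and limma gave an adjusted p of 1.86e-07. Ivd ranked 46th from the top among all genes in this comparison, and the call held under all 18 alternatives.

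Control replicate 4 stood apart from the other controls in genes that are high in Pdx1-creLate islets. It read 7.3 for Tph1, an enzyme of serotonin synthesis, where the other controls read 4.5 to 4.6, and 7.9 for the tight-junction gene Cldn8, where they read 5.1 to 5.3. It was also the highest control for Ivd, at 10.3, and for Bcat1, at 5.6. Without it the difference was 2.08 for Ivd and 1.41 for Bcat1.

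**Figure D3:**
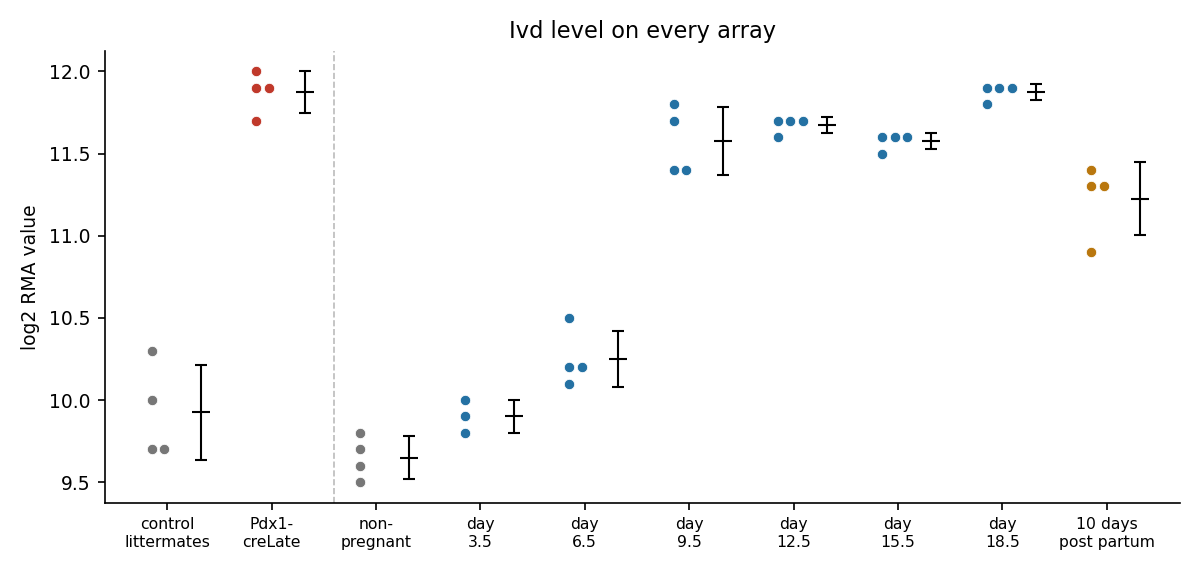
Ivd level in log2 units (vertical axis) on every array (points) of the 10 groups, with the group mean and SD beside them; the dashed line parts the backcross mice from the C57bl6/J mice. The Pdx1-creLate arrays and those of days 9.5 to 18.5 lie between 11.4 and 12.0, and controls, non-pregnant mice and days 3.5 and 6.5 lie between 9.5 and 10.5.

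Over pregnancy Ivd had a low level, a jump and a plateau. It read 9.7, 9.6, 9.5 and 9.8 in non-pregnant islets, 10.0, 9.8 and 9.9 at day 3.5, and 10.5, 10.2, 10.2 and 10.1 at day 6.5. At day 9.5 the arrays read 11.4, 11.4, 11.7 and 11.8, and none overlapped with day 6.5. Day 12.5 gave 11.6, 11.7, 11.7 and 11.7, day 15.5 gave 11.6, 11.6, 11.5 and 11.6, and day 18.5 gave 11.8, 11.9, 11.9 and 11.9. The step from day 6.5 to day 9.5 was 1.33 (2.50-fold), and the later steps were 0.10, -0.10 and 0.30. Against non-pregnant islets the differences by day were 0.25, 0.60, 1.93, 2.03, 1.93 and 2.23, and all share the same 4 non-pregnant arrays. The mid-pregnancy value that led to the choice of Ivd was 1.96 ± 0.08 (3.89-fold), the 6th highest of all genes. At the step from day 6.5 to day 9.5, values of other cell types moved as well. The mean of 13 acinar markers was 9.86 to 10.05 at day 6.5 and 6.62 to 9.79 at day 9.5. That of 6 macrophage markers was 6.68 to 6.80 against 6.85 to 7.03, both without overlap, while the other cell-type means overlapped. Under the alternatives, the acinar mean as a covariate among them, the Ivd step was 1.24 to 1.41. Beyond that covariate their part in the steps of Ivd and other members was not tested.

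After birth Ivd was lower but still well above the non-pregnant level. Post partum arrays read 11.3, 11.4, 10.9 and 11.3, above all arrays of day 6.5 and below all of day 18.5. From day 18.5 to 10 days post partum Ivd fell by 0.65 ± 0.10 (0.64-fold, limma adjusted p = 0.000122). The arrays compared did not enter the mid-pregnancy value, but the spread in the test came from all 31 C57bl6/J arrays. The call held under all 19 alternatives, a fit of the compared groups alone among them, with differences of -0.74 to -0.51. The post partum mean of 11.23 ± 0.22 (SD, n = 4) remained 1.58 ± 0.10 (SE; 2.98-fold) above non-pregnant islets.

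In order of group means, Ivd ran from non-pregnant (9.65) through day 3.5 (9.90), controls (9.93), day 6.5 (10.25), post partum (11.23), days 15.5 and 9.5 (both 11.58) and day 12.5 (11.68) to day 18.5 and Pdx1-creLate (both 11.88). Arrays of neighbouring groups overlapped at each position except between day 6.5 and post partum and between post partum and day 15.5. The Pdx1-creLate effect and the mid-pregnancy effect on Ivd differed by -0.01 (95% interval -0.30 to 0.28), given as a description. Controls exceeded non-pregnant mice in Ivd by 0.28, also a description, since the non-pregnant arrays led to its choice. Without control replicate 4 that value was 0.15.

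Acad8 (isobutyryl-CoA dehydrogenase; probe set 10591947, chr9:26974138-26999571) and Acadsb (short/branched-chain acyl-CoA dehydrogenase; probe set 10558227, chr7:131410601-131446211) act on the esters from valine and isoleucine. In contrast to Ivd, neither was called in Pdx1-creLate islets, where the differences were 0.08 (95% interval -0.11 to 0.26) and 0.18 (-0.03 to 0.38). Acad8 read 8.4, 8.2, 8.4 and 8.3 in Pdx1-creLate and 8.2, 8.2, 8.3 and 8.3 in controls, and its arrays in all C57bl6/J groups lay between 7.5 and 8.0. Its mid-pregnancy difference was 0.09 (95% interval -0.03 to 0.22, adjusted p = 0.448).

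Acadsb read 8.4, 8.1, 8.4 and 8.1 in non-pregnant islets, 8.4, 8.6, 8.6 and 8.8 at day 9.5, and 8.7, 8.5, 8.6 and 8.7 at day 18.5. It was called at day 9.5 (0.35, limma adjusted p = 0.00346) and day 18.5 (0.38, 0.00221), and both calls ended with array SD as a covariate (0.15 and 0.19). Array SDs were 2.07 to 2.11 at day 9.5 and 2.05 to 2.10 at day 18.5, against 2.01 to 2.05 in non-pregnant islets. The mid-pregnancy difference of Acadsb was 0.20 and was not called (adjusted p = 0.0582). It was called when day 9.5 replicate 1, day 12.5 replicate 4, day 15.5 replicate 2 or non-pregnant replicate 1 or 3 was left out, with differences of 0.21 to 0.25. It was called too without the dimmest genes (0.20, limma adjusted p = 0.0407), with trend and robust (0.20, 0.0346) and with array weights (0.19, 0.0444).

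Mccc1 and Mccc2 are the biotin-bearing and the carboxyl-transferring subunits of methylcrotonyl-CoA carboxylase, and Auh is the hydratase that acts on its product. None of the 3 was called in Pdx1-creLate islets. The differences were -0.20 for Mccc1 (95% interval -0.40 to -0.01, limma adjusted p = 0.252), -0.08 for Mccc2 (-0.27 to 0.12) and -0.28 for Auh (-0.51 to -0.04, limma adjusted p = 0.170). The steps after Ivd in the leucine branch thus had no member higher in these islets by the test.

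Mccc2 (probe set 10411532, chr13:99948532-100015639) read 7.0, 7.2, 6.8 and 6.8 in non-pregnant islets, 7.0, 6.8, 6.9 and 6.8 at day 6.5, and 7.2, 7.2, 7.3 and 7.3 at day 9.5. Day 9.5 lay above every array of day 6.5, and the step of 0.38 ± 0.08 was called (limma adjusted p = 0.00119) and held under all 19 alternatives. It was 1 of 4 called among the 9 members tested at this step, beside 17.4% of all genes. Auh and Acadsb rose at the same step by 0.45 (0.00164) and 0.40 (0.00123), and both calls ended with array SD as a covariate (0.28 and 0.25). The 4th was Bckdhb, at 0.28 (0.0426), whose call was lost without day 6.5 replicate 1, 2 or 4 or day 9.5 replicate 1 or 4 (0.18 to 0.29). It was also lost under 7 processing alternatives (0.14 to 0.30), the lowest with array SD as a covariate.

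Against non-pregnant islets Mccc2 was higher at day 9.5 by 0.30 (limma adjusted p = 0.00690), a call that ended with quantile normalization (0.22, 0.0505), with array SD as a covariate (0.30, 0.115) and with the compared groups alone (0.30, 0.0570). The mid-pregnancy difference of Mccc2 was 0.13 (adjusted p = 0.263), and without non-pregnant replicate 2 it was 0.21 and called (limma adjusted p = 0.0382). Mccc1 (probe set 10497773, chr3:35956292-36000694) ran the other way. It read 7.8, 7.8, 7.8 and 7.6 in non-pregnant islets and 7.4, 7.3, 7.6 and 7.5 at day 15.5, a difference of -0.30 (adjusted p = 0.0210). That call was lost when day 15.5 replicate 1 (-0.28, 0.0540) or 2 (-0.25, 0.0914) was left out, and likewise non-pregnant replicate 1 (-0.28, 0.0656), 2 (-0.28, 0.0657) or 3 (-0.28, 0.0615). Centring on array medians (-0.25, 0.136) and a fit of the compared groups alone (-0.30, 0.0686) ended it too. Its mid-pregnancy difference was -0.16 (adjusted p = 0.172), and without day 9.5 replicate 4 it was -0.19 and called (0.0422). It was called as well with quantile normalization (-0.20, 0.0165) and with array SD as a covariate (-0.27, limma adjusted p = 0.00815).

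By single days, 3 of 9 members tested were called at day 9.5 (Bckdhb, Acadsb and Mccc2) beside 19.4% of all genes, 3 at day 15.5 (Bcat1, Bckdhb and Mccc1) beside 8.23%, and 2 at day 18.5 (Bckdhb and Acadsb) beside 11.1%. At days 3.5, 6.5 and 12.5 limma called 0 of 9, beside 0.0451%, 0.622% and 5.27% of all genes, and 0, 2 and 2 members had an unadjusted p under 0.05. The moderated F-test for any difference among non-pregnant islets and the 6 pregnancy days called 6 of 9 members, beside 39.8% of all genes. These were Bcat1, Bckdhb, Auh, Acadsb, Mccc1 and Mccc2.

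**Figure D4:**
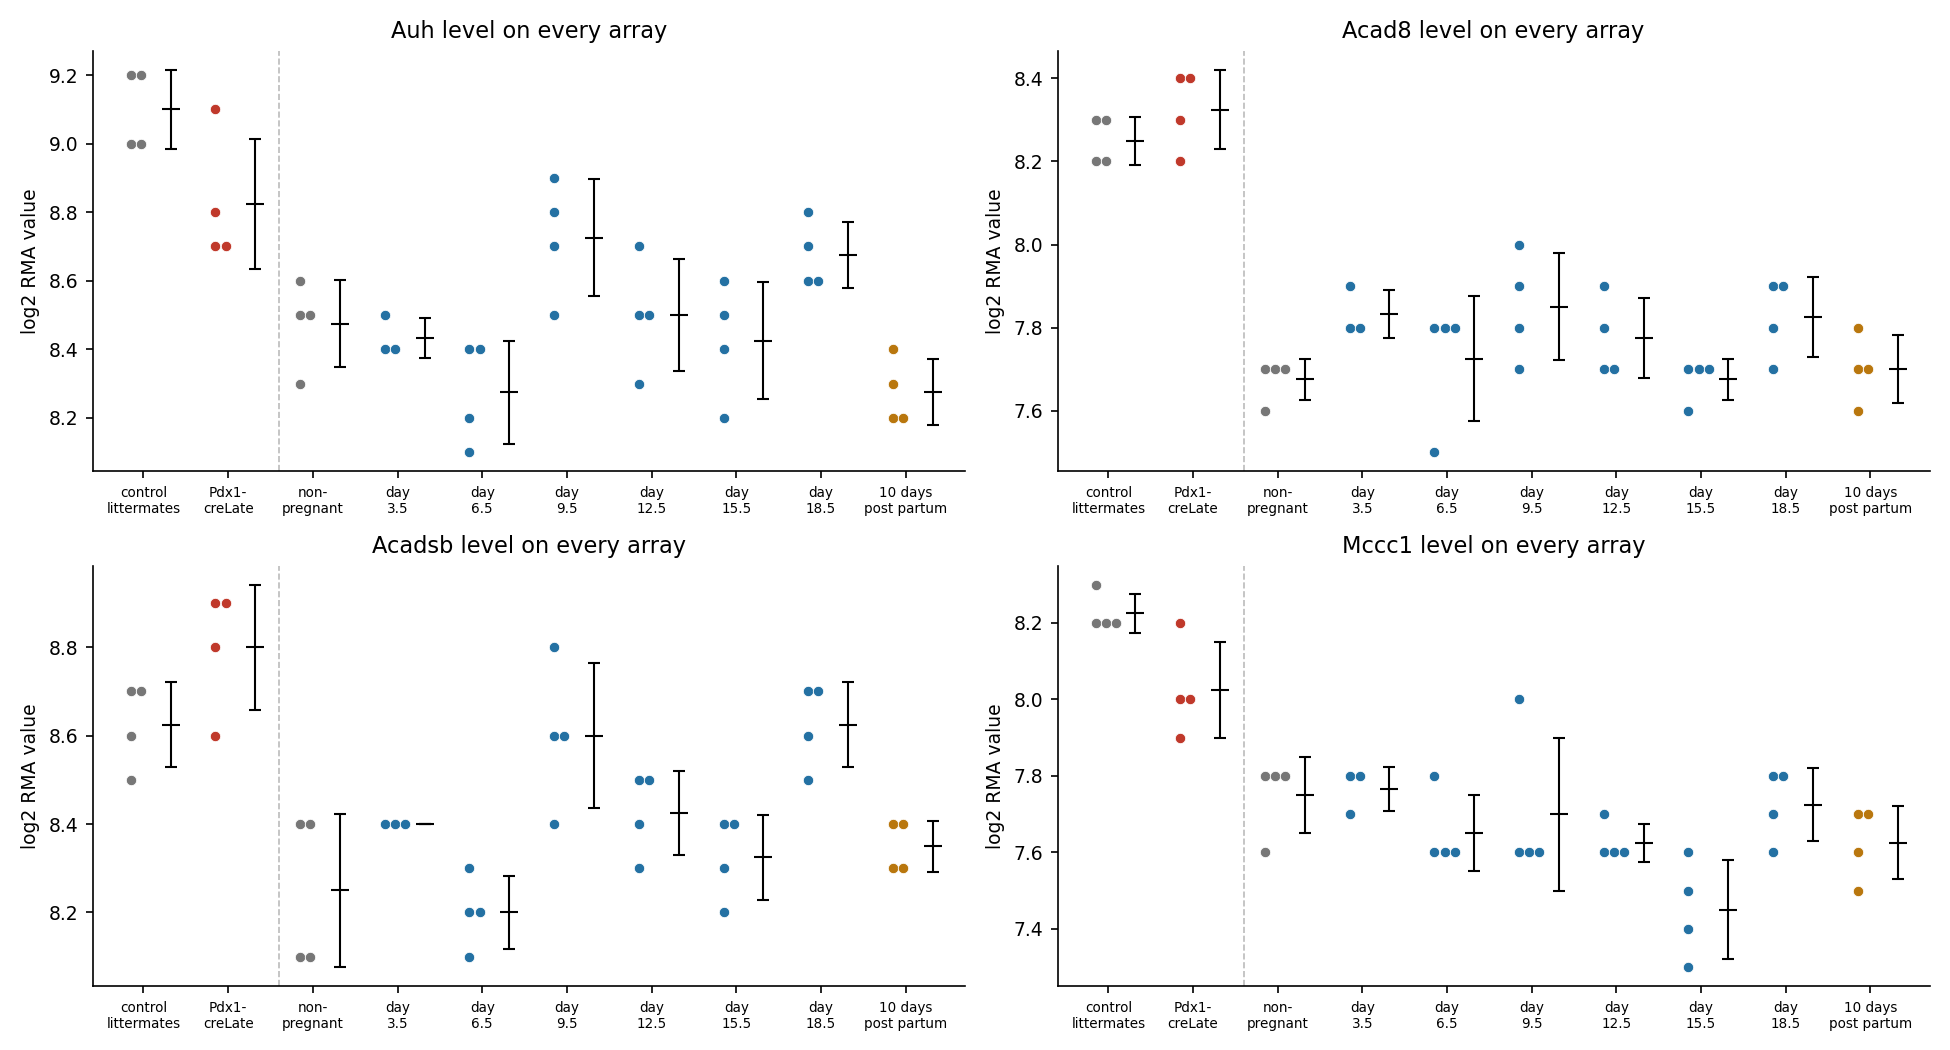
Levels of Auh, Acad8, Acadsb and Mccc1 in log2 units on every array (points) of the 10 groups, with the group mean and SD beside them; the dashed line parts backcross from C57bl6/J mice. The 4 genes shown are the members called higher in controls than in non-pregnant mice, a comparison that called 13.1% of all genes higher. Acad8 lies at 8.2 to 8.3 in controls and at 7.6 to 7.7 in non-pregnant mice.

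Across birth, from day 18.5 to 10 days post partum, 6 of 10 members were called, beside 30.2% of all genes (11.8% higher and 18.4% lower). Besides Ivd, Bckdha and Bckdhb these were Auh, Acadsb and Mccc2. Auh (probe set 10409265, chr13:52835107-52929704) read 8.6, 8.6, 8.8 and 8.7 at day 18.5 and 8.3, 8.2, 8.4 and 8.2 post partum, a fall of 0.40 ± 0.10 (difference -0.40, limma adjusted p = 0.00393). Acadsb fell by 0.28 (0.0147) and Mccc2 fell by 0.25 (0.0167), and their calls were lost without day 18.5 replicate 4 (-0.25, 0.0502) and post partum replicate 2 (-0.21, 0.0646). With quantile normalization Auh was at -0.21, Acadsb at -0.09 and Mccc2 at -0.13, and none of these 3 was called. With array SD as a covariate they were at -0.13, -0.04 and -0.25, and again not called.

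Markers of other cell types moved across birth as well. The mean of 7 endothelial markers was 8.27 to 8.41 at day 18.5 and 7.81 to 8.0 post partum. That of 6 stellate markers was 6.73 to 6.95 against 6.45 to 6.62, and that of 3 PP-cell markers was 11.2 to 11.4 against 11.1, both without overlap. The mean of 4 T- and B-cell markers was 5.23 to 5.33 against 5.40 to 5.53. Their part in the changes of Ivd and the other members across birth was not tested.

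The unstimulated groups of the 2 backgrounds also differed. Controls were higher than non-pregnant C57bl6/J mice in 4 of 9 members tested, beside 20% of all genes (13.1% higher and 6.96% lower), and all 4 calls held under every alternative run. Auh read 9.0, 9.2, 9.2 and 9.0 in controls, against 8.5, 8.6, 8.5 and 8.3 in non-pregnant mice, a difference of 0.63 ± 0.10 (limma adjusted p = 2.11e-05). Acad8 was higher by 0.58 ± 0.07 (6.33e-07), Mccc1 by 0.48 ± 0.08 (7.38e-05) and Acadsb by 0.38 ± 0.08 (0.00140). Strain background, sex and any separate handling cannot be told apart in this comparison.

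Over the 10 group means these 4 genes, Auh, Acad8, Acadsb and Mccc1, had pairwise Pearson r of 0.64 to 0.90. They were picked by their calls between controls and non-pregnant mice, whose means are among the 10. A high r among them therefore follows in part from that choice. Against Ivd the other 9 members had r from -0.30 (Mccc1) to 0.73 (Bcat2), with 0.42 for Bcat1 and 0.54 for Bckdhb. The points are means of 3 or 4 arrays, and groups of one strain share their background.

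Further genes of the pathway and of linked processes were taken from lists of 54 measured genes. Of these, 18 were other breakdown enzymes, 2 regulators of the keto acid dehydrogenase complex and 8 carriers of these amino acids. The rest were 9 other acyl-CoA dehydrogenases, 3 genes of electron transfer from them, 3 biotin genes, 6 genes of leucine and glutamate use and 5 ketone and HMG-CoA enzymes. In Pdx1-creLate islets 2 of the 54 were higher and 3 lower, beside 2.86% and 3.72% of all genes. Of these 5 calls 1, Glul, held under all alternatives. Glul, which makes glutamine from glutamate, read 10.2 to 10.6 in Pdx1-creLate and 11.2 to 11.3 in controls, and fell by 0.93 ± 0.10 (limma adjusted p = 3.77e-05). Of 18 further breakdown enzymes, 1 was higher, and of 8 carriers of these amino acids, 1 was lower. Their medians were -0.10 and 0.05, beside -0.03 for all genes.

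At mid-pregnancy 10 of the 54 genes were higher and 2 lower, beside 6.72% and 2.52% of all genes, and 4 of these 12 calls held under all alternatives. Bckdk, the kinase that inhibits the keto acid dehydrogenase complex, read 8.9 to 9.1 in non-pregnant islets and 9.4 to 9.6 at days 9.5, 12.5 and 15.5, and rose by 0.53 ± 0.07 (limma adjusted p = 4.97e-07). Its phosphatase Ppm1k was at 0.18 (0.225). Gcdh, the glutaryl-CoA dehydrogenase of lysine and tryptophan breakdown, rose by 0.71 ± 0.07 (3.26e-09). It was the 1 called of 9 other acyl-CoA dehydrogenases. The aspartate transaminase Got1 rose by 0.33 ± 0.07 (0.00129) and Glul fell by 0.40 ± 0.08 (0.00119).

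By group, Bckdk averaged 9.0 in non-pregnant islets, 9.20 at days 3.5 and 6.5, 9.48 to 9.55 from day 9.5 to day 18.5, and 9.20 post partum. In the backcross mice it was 9.10 in controls and 9.15 in Pdx1-creLate, a difference of 0.05 that was not called (adjusted p = 0.849). The Pdx1-creLate effect on Bckdk was below the mid-pregnancy effect by 0.48 (difference -0.48, limma adjusted p = 0.00706). Gcdh averaged 7.73 in non-pregnant islets, 8.35 to 8.50 from day 9.5 to day 18.5, 8.18 post partum, 8.28 in controls and 8.78 in Pdx1-creLate. Its Pdx1-creLate difference of 0.50 was called (0.0212), though that call was lost without Pdx1-creLate replicate 1, 3 or 4 or control replicate 1, 2 or 3 (0.44 to 0.53), and with the acinar mean (0.47) or array SD (0.35) as a covariate.

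Post partum, 5 of the 54 genes were higher than in non-pregnant islets and 4 were lower, beside 4.46% and 7.78% of all genes. Gcdh (0.45, limma adjusted p = 0.000456) and Glul (-0.43, 0.00568) held under all alternatives. Across birth 21 of the 54 were lower and 0 higher, beside 18.4% and 11.8% of all genes, and none of these 21 calls held under every alternative. Controls were higher than non-pregnant mice in 22 of the 54 and lower in 0, beside 13.1% and 6.96% of all genes, and 15 of these calls held under all alternatives.

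The genes whose 10 group means ran most like those of Ivd were sought among the 648 genes with group means ranging over at least 1 log2 unit. The 5 with the highest Pearson r were Hsbp1 (0.987), Tph2 (0.980), Cldn8 (0.980), Aldh9a1 (0.979) and Wipi1 (0.979). Hsbp1 binds heat shock factor, Tph2 is a tryptophan hydroxylase, Aldh9a1 is an aldehyde dehydrogenase of carnitine synthesis, and Wipi1 takes part in autophagy. Their group means ranged over 1.38 log2 units for Hsbp1, 2.75 for Tph2, 6.05 for Cldn8, 1.23 for Aldh9a1 and 1.65 for Wipi1. Cldn8 had no promoter among those searched. Of the other 4, the 2 printed above, Aldh9a1 (TTCCAGGAA, 210 bases before the start) and Wipi1 (TTCTCTGAA, 158 bases before), held TTCNNNGAA. Of all genes 9.55% hold that motif. Tph2 held TGATGNAA, read on the opposite strand as TTCCATCA, 53 bases before its start.

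**Figure D5:**
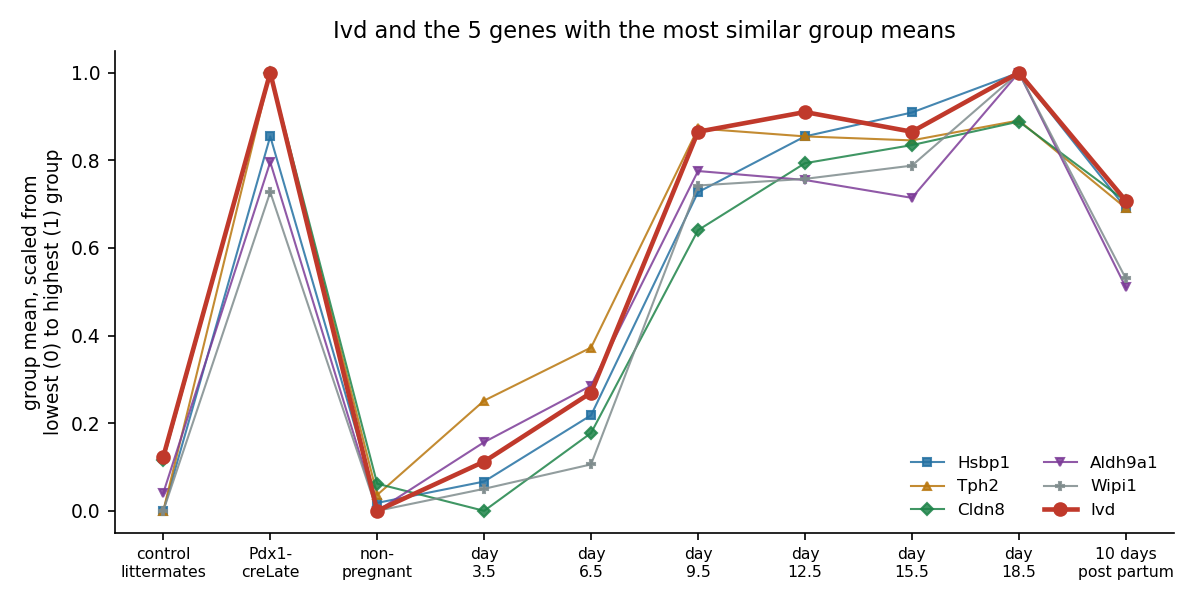
Group means of Ivd (thick line) and of Hsbp1, Tph2, Cldn8, Aldh9a1 and Wipi1, each scaled from its lowest group (0) to its highest (1), over the 10 groups on the horizontal axis. All 6 lines are lower in controls, non-pregnant mice and days 3.5 and 6.5, and higher in Pdx1-creLate and from day 9.5 to day 18.5. Post partum all 6 lie below day 18.5 and above day 6.5.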

How the data were processed

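Total RNA of mouse islets was labelled with biotin and hybridized to 39 arrays. The deposited log2 values were made by the authors with RMA in Affymetrix Expression Console, per the submitters' processing notes. Its version, and whether all arrays were normalized as 1 set, are not given in the sources used here. RMA includes quantile normalization, which can hide shifts common to all genes. Of 35556 probe sets, 21789 carried 1 gene symbol, and the highest-mean probe set per symbol gave 19938 genes. No filter on low values was applied and no array was left out. Groups and replicate numbers came from the sample labels.

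Differences were fitted with lmFit and eBayes of limma 3.58.1 (R 4.3.3), with two-sided tests, p adjusted by Benjamini-Hochberg across the 19938 genes, and a threshold of 0.05. The fit was made on the 8 backcross arrays for Pdx1-creLate minus control, on the 31 C57bl6/J arrays for pregnancy and post partum, and on all 39 arrays for comparisons across the 2 backgrounds. The members, lists, motifs and alternatives were chosen with earlier results of these data known. All 10 members are named; of the lists, every one was counted and up to 6 called genes per list and comparison could be named by size. Those whose calls held under all alternatives were preferred. The genes most like Ivd were the 5 with the highest r. Promoters came from RefSeq on GRCm38.p6. Tables and figures used Python 3.11.15, pandas 2.3.3, numpy 2.4.6 and matplotlib 3.10.9.

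Alternatives were quantile normalization, centring on array medians, leaving out the dimmest 25% of genes, array weights, eBayes with trend and robust, averaging a gene's probe sets, a covariate (acinar marker mean or array SD), 1 model of all 39 arrays, a block for the replicate number, the compared groups alone, and each array left out in turn. Tested on simulated data of 19938 genes, the Pdx1-creLate, mid-pregnancy, post partum and birth comparisons recovered 100% of genes changed by 1 log2 unit. Of genes changed by 0.5 they recovered 72%, 91%, 73% and 75%. Unchanged genes made up 3.37%, 7.28%, 7.98% and 4.89% of all calls. The simulated noise was independent between genes and arrays, so variation shared across an array, such as its SD, was not in it. These rates therefore need not hold for the real arrays.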

Additional observations from a re-analysis of the deposited data

Results flagged for a closer look

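The Pdx1-creLate effect on Bcat1 exceeded its mid-pregnancy effect by 1.29 ± 0.14 on the log2 scale. This was tested as a difference of effects over all 39 arrays (limma adjusted p = 7.11e-09), and all 4 Pdx1-creLate arrays lay above all others. The 2 effects come from mice that also differ in sex and strain background, so setting, sex and background cannot be told apart.

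In 14 of 90 groups of 4 arrays examined, 1 array lay apart from 3 others that had the same value, so that its gap made up the whole range. Chance flags about 1 in 20 such groups, and values with 1 decimal make ties among arrays common. For Ivd these were day 12.5 replicate 1 (11.6, others 11.7), day 15.5 replicate 3 (11.5, others 11.6) and day 18.5 replicate 1 (11.8, others 11.9). Bcat1 had day 18.5 replicate 2 (5.5, others 5.3), and Bcat2 had day 9.5 replicate 4 (7.8, others 7.6). Acad8 had day 6.5 replicate 4 (7.5, others 7.8), day 15.5 replicate 2 (7.6, others 7.7) and non-pregnant replicate 1 (7.6, others 7.7). Mccc1 had control replicate 3 (8.3, others 8.2), day 6.5 replicate 3 (7.8, others 7.6), day 9.5 replicate 4 (8.0, others 7.6), day 12.5 replicate 2 (7.7, others 7.6) and non-pregnant replicate 4 (7.6, others 7.8). Mccc2 had day 18.5 replicate 1 (7.0, others 7.1).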

How the results depend on the processing

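Over the gene results followed, 2300 of 2631 values under an alternative were counted as unchanged, 310 lost a call, 12 gained one, 1 moved and 8 changed sign. All 10 members were followed in Pdx1-creLate and at mid-pregnancy. In other comparisons only Ivd and called members were followed, and of the listed pathway genes only called ones. A gained call could thus be counted only in Pdx1-creLate and at mid-pregnancy. Unchanged means the same side of the threshold and no counted change of sign for tested results. For untested Ivd values it means a shift under 1 residual SD, and sign changes of Ivd differences smaller than that SD were not counted. The main difference of 0.00 of Bckdhb in Pdx1-creLate could not be counted as changing sign. Of 10 members, 2 were called in Pdx1-creLate under every alternative. Of 9 tested at mid-pregnancy, 1 was called, and 2 with quantile normalization, with the dimmest 25% left out, with trend and robust, or with array weights (1 to 2 with single arrays left out). Post partum, 2 calls became 1 with quantile normalization, centring, the array SD, the replicate block or only the groups compared (1 to 2 with arrays left out). Across birth, 6 calls became 3 with quantile normalization and 1 with the array SD (5 to 6 with arrays left out), while calls among all genes went from 6014 to 1979 with quantile normalization. For the difference between effects, 1 to 2 were called with arrays left out. Controls against non-pregnant mice gave 4 calls, and 5 with array weights. The Ivd difference there ran from 0.15 to 0.35 with arrays left out. Uncalled differences that changed sign were Bckdha in Pdx1-creLate (-0.046 with the acinar covariate, -0.009 with the array SD), Bckdha at mid-pregnancy (-0.006 with quantile normalization, -0.103 with the array SD, -0.033 without non-pregnant replicate 4) and Auh at mid-pregnancy (-0.045 with the array SD). Across birth, Pcca (0.006) and Acad11 (0.074) changed sign with the array SD. The cause of these changes was not tested. Replicate numbers did not pair the arrays: deviations of same-numbered arrays had a median r of 0.01, with 25 of 171 pairs over 0.1, against 72 of 513 pairs of other numbers. With the replicate block Bckdha post partum was at -0.33 (adjusted p = 0.0584), and no other member lost a call in the comparisons to which the block was applied. Signal over background limits dim genes, and no array background values were used.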
